A study of Mus musculus with 6 samples.

Results

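The 54 genes described here encode the machinery with which mitochondria oxidize pyruvate and make ATP. They are 32 subunits of respiratory complexes I to V, 2 enzymes that make the heme A of complex IV, 4 components of the pyruvate dehydrogenase complex, 12 subunits or enzymes of the tricarboxylic acid (TCA) cycle, and 4 nuclear regulators of mitochondrial genes. They were chosen by gene symbol, and all 54 had a probe set that names 1 gene only, out of 19937 genes measured in this way. Tumors were grown from 4T1, an established cell line of mouse mammary carcinoma, by placing 750000 cells into a mammary gland of Balb/C mice. Treatment began on day 7 and was given by mouth daily for 14 days. One group of 3 mice received water and the other group of 3 received 40 mg/kg of TKI258 (dovitinib), an inhibitor of receptor tyrosine kinases that include those for FGF, VEGF and PDGF. Each tumor was hybridized to 1 array, and values are log2 signals, so a difference of 1 is a doubling of signal. A tumor graft holds vessels, stroma, immune cells and adjacent fat as well as 4T1 cells, in both groups. The titles call the tumors of a group biological replicates. Values per tumor are listed below in the order of replicates 1, 2 and 3. The titles do not say that these numbers pair water with TKI258 tumors, and the tumors were compared as unpaired.

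Pyruvate from glycolysis enters mitochondria, where pyruvate dehydrogenase converts it to acetyl-CoA for the TCA cycle. The cycle hands electrons to complex I (NADH dehydrogenase) and complex II (succinate dehydrogenase), which pass them through complex III and cytochrome c to oxygen at complex IV, and the proton gradient built on the way drives ATP synthesis by complex V. Most of the proteins involved are encoded in the nucleus, and the transcription factor NRF1, the coactivators PGC-1α and PGC-1β and the mitochondrial DNA factor TFAM are known regulators of their supply. Tumor cells often run glycolysis at high rates while keeping a working TCA cycle.

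The comparison was between treated and untreated tumors. Array medians lay between 6.38 and 6.44, and correlations between arrays between 0.973 and 0.993. Of 7 epithelial markers, the keratin genes Krt8 and Krt18, which mark mammary carcinoma cells, had signals of 11.55 to 11.88 and 11.13 to 11.70, and Krt18 differed by -0.32 ± 0.11, its TKI258 tumors all below its water tumors. The other 5 (Krt5, Krt14, Krt19, Epcam and Cdh1) ran from 6.11 to 9.37, with Krt19, Epcam and Cdh1 higher and Krt5 and Krt14 lower on average after TKI258, all with overlapping groups. TKI258 replicate 3 stood apart by its B and plasma cell markers (mean of 6 genes 9.26, against 5.16 and 5.36 in the other TKI258 tumors), and water replicate 1 was the highest of its group (7.08, against 4.91 and 5.15). Skeletal muscle markers were highest in water replicate 2 (mean of 10 genes 7.42, against 6.01 to 6.49 in the other 5 tumors). The 10 adipocyte markers averaged 7.34, 6.32 and 6.85 in water and 7.39, 8.07 and 8.89 in TKI258 tumors, and 10 of 10 genes had a higher mean after TKI258. The 9 keratinocyte markers averaged 5.03, 7.07 and 6.77 in water tumors and 4.83 to 5.19 in TKI258 tumors. Neutrophil markers averaged 7.52 in water and 6.67 in TKI258 tumors and fibroblast markers 10.05 and 10.33, both list means without overlap between groups. Of the 8 neutrophil genes only Retnlg, Ngp and Ly6g had separate groups, and Camp differed by -0.036. Of the 7 fibroblast genes only Col3a1 and Dcn did, and Pdgfrb was lower (-0.19). Group means with overlapping tumors were 9.94 and 9.77 for macrophage, 8.03 and 7.69 for endothelial, 5.47 and 5.36 for brown adipocyte, and 8.91 and 8.58 for epithelial markers. No gene of these lists passed limma's test after adjustment.

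Transcripts of the respiratory chain and the TCA cycle differed little between treated and untreated tumors. The largest difference of any member was a 1.17-fold lower signal, for the complex I subunit gene Ndufb9, and the largest in the other direction was 1.05-fold, for the coactivator gene Ppargc1b. Of the 54 members, 38 had a lower and 16 a higher mean in TKI258 tumors, and the median log2 difference was -0.099, against 0.023 over all 19937 genes. With quantile normalization 33 of the 54 were lower (61.1%), and with median centring 46 (85.2%, against 70.4% as deposited). None of them passed limma's test with Benjamini-Hochberg adjustment over all 34760 probe sets (adjusted p from 0.604 to 0.995), and 0.00% of all probe sets passed. At an unadjusted limma p under 0.05 there was 1 of 54 members, the citrate synthase gene Cs, against 7.14% of all genes. Counts of members use 1 probe set per gene, that with the highest mean. A second Suclg2 probe set, not counted, had an unadjusted limma p of 0.0385. In bulk tumors, fewer cells of a type and less RNA per cell cannot be told apart.

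The intervals of the fit bounded these differences. The standard errors of the members ran from 0.079 to 0.14, and the median SD between tumors of a group was 0.097, against 0.13 for all genes. For all 54 members the 95% interval of the difference lay within a 1.5-fold change in either direction. This limit (0.58 on the log2 scale) was not part of the planned comparison. The lowest bound was -0.56 (Ndufb9) and the highest 0.40 (Ppargc1b) on the log2 scale. Over all genes 16530 of 19937 intervals lay within that limit. The intervals are for single genes and are not corrected for their number.

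**Figure D1:**
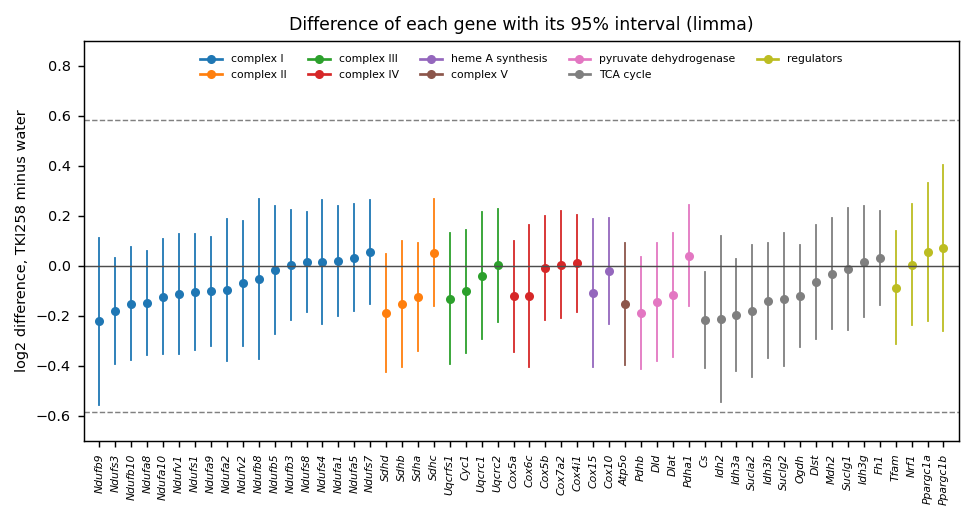
Log2 difference (TKI258 minus water tumors, 3 of each) of each of the 54 genes, colored by complex or pathway step; points are differences, bars are 95% intervals from limma, and dashed lines mark a 1.5-fold change. All 54 intervals lie between the dashed lines, and only that of Cs does not reach 0.

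The direction was set beside that of other genes with like signals, since most members lay above the array medians. Across the 2595 genes whose mean signal lay between the lower and upper quartiles of the members' (9.05 to 10.28), a comparison chosen after the values were seen, 67.1% were lower in TKI258 tumors, against 70.4% of the members and 43.4% of all genes. Their median difference was -0.046. The gap to the members was wider under several other settings: 52.8% of these genes against 61.1% of the members with quantile normalization, 72.5% against 85.2% with median centring, 57.4% against 72.2% with array weights, 67.5% against 85.2% without water replicate 1 and 52.2% against 68.5% without TKI258 replicate 3. Leaving out both water replicate 1 and TKI258 replicate 3, a setting added after the data were seen, gave the widest gap, 53.9% against 75.9%. The shares were 71.3% and 81.5% without TKI258 replicate 1, and 64.1% and 72.2% without water replicate 2. Without water replicate 3 the shares were 65.4% and 64.8%. Signals of different probe sets also depend on their probes, so the range groups signals and not transcript amounts. Of these genes 7.13% had an unadjusted limma p under 0.05. The 3 TKI258 tumors lay below the 3 water tumors for 7 of 54 members (Ndufa8, Ndufs3, Sdhd, Pdhb, Dld, Cs and Idh3a), against 6.49% of all genes and 11.9% of the genes in that signal range. For 0 members did all treated tumors lie above all untreated ones, against 8.66% of all genes and 3.24% of the genes in that signal range.

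**Figure D2:**
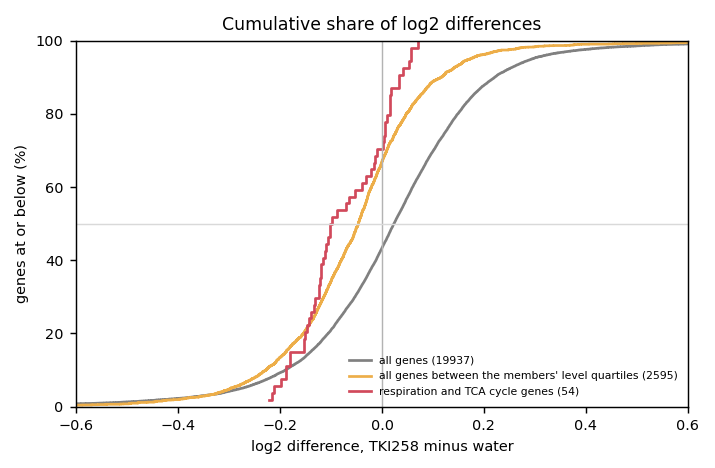
Cumulative share (%) of log2 differences, TKI258 minus water, for all 19937 genes, the 2595 genes in the middle of the members' signal range, and the 54 respiration and TCA cycle genes. The curves cross 50% at 0.023, -0.046 and -0.099, and the members span -0.22 to 0.070.

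Complex I, the entry point for electrons from NADH, was represented by 18 subunit genes, of which 12 were lower and 6 higher in TKI258 tumors (median difference -0.084). Ndufs3, a subunit of the arm that reaches into the matrix, had the smallest p of the complex, and its signal was 10.59, 10.68 and 10.59 in water and 10.51, 10.48 and 10.33 in TKI258 tumors. All treated tumors were below all untreated ones, TKI258 replicate 3 was the lowest, and the difference was -0.18 ± 0.088 (log2 ± SE, limma adjusted p = 0.657). A second Ndufs3 probe set with a lower signal differed by -0.053 ± 0.12, with overlapping groups. The accessory subunit gene Ndufa8 stood at 9.77, 9.87 and 9.69 in water and 9.67, 9.64 and 9.58 in TKI258 tumors. Its groups did not overlap either, by a gap narrower than the spread within each group, and it differed by -0.15 ± 0.087 (adjusted p = 0.681). Ndufb9, a subunit of the membrane arm, showed the largest difference, -0.22 ± 0.14, with 10.01, 10.13 and 10.19 in water and 10.05, 10.01 and 9.60 in TKI258 tumors. TKI258 replicate 3 was the lowest by far, while TKI258 replicates 1 and 2 lay within the range of the water tumors, and without replicate 3 the difference was -0.080. The core subunit genes for the electron path within complex I, Ndufs1, Ndufs7, Ndufs8, Ndufv1 and Ndufv2, differed by -0.11, 0.057, 0.015, -0.11 and -0.071. The groups overlapped for each of these 5. The remaining 10 members, Ndufa1, Ndufa2, Ndufa5, Ndufa9, Ndufa10, Ndufb3, Ndufb5, Ndufb8, Ndufb10 and Ndufs4, lay between -0.15 (Ndufb10) and 0.033 (Ndufa5), all with overlapping groups.

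**Figure D3:**
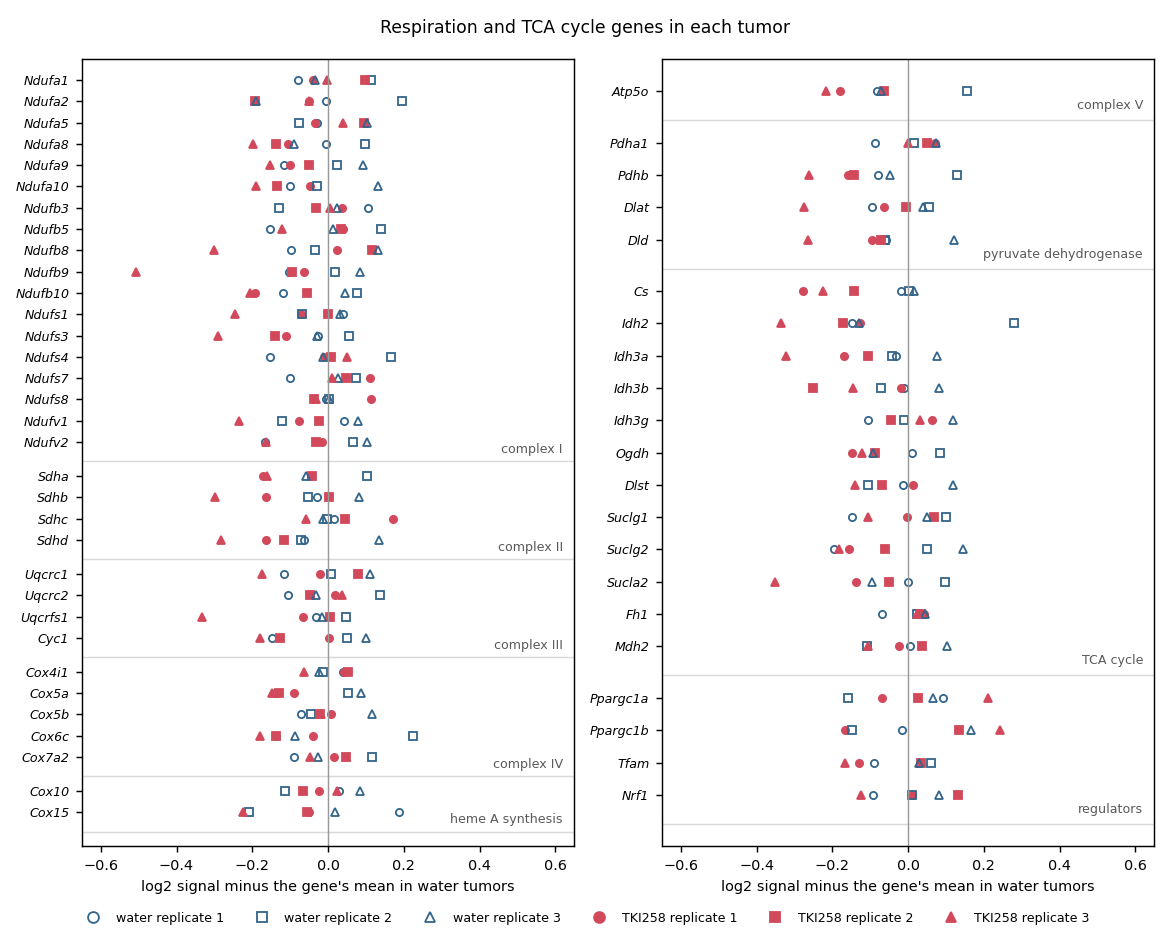
Log2 signal of each gene in each of the 6 tumors, minus the gene's mean in the 3 water tumors. Open blue symbols are water, filled red symbols TKI258 tumors, and the symbol shape gives the replicate number. The titles do not say that the numbers pair tumors. Most points lie within 0.2 of the water mean, and TKI258 replicate 3 is the lowest tumor for 29 of the 54 genes.

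Complex II oxidizes succinate and belongs to both the TCA cycle and the respiratory chain. Of its 4 subunit genes, 3 were lower and Sdhc, a membrane anchor, was higher (0.053 ± 0.090). Sdhd, the other membrane anchor, had signals of 9.93, 9.92 and 10.13 in water and 9.83, 9.88 and 9.71 in TKI258 tumors, so that the treated tumors lay below the untreated ones. It differed by -0.19 ± 0.098 (adjusted p = 0.667). For the iron-sulfur subunit gene Sdhb the values were 9.30, 9.28 and 9.41 in water and 9.17, 9.33 and 9.03 in TKI258 tumors. Its groups overlapped and the difference was -0.15 ± 0.10. The flavoprotein gene Sdha, whose product holds the succinate site, differed by -0.12 ± 0.090.

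Complexes III, IV and V, which carry electrons to oxygen and make ATP, had 10 members, and the groups overlapped for each of them. In complex III, Uqcrfs1 (the Rieske iron-sulfur protein) had signals of 8.12, 8.20 and 8.14 in water and 8.09, 8.16 and 7.82 in TKI258 tumors, with TKI258 replicate 3 below the other 5 tumors and a difference of -0.13 ± 0.11. Cyc1 (cytochrome c1) stood at 9.69, 9.88 and 9.94 in water and 9.84, 9.71 and 9.66 in TKI258 tumors and differed by -0.10 ± 0.10, its groups overlapping. The core protein genes Uqcrc1 and Uqcrc2 differed by -0.039 ± 0.11 and 0.0027 ± 0.095. In complex IV, cytochrome c oxidase, the median difference of 5 subunit genes was -0.010, and 0.026 with quantile normalization, which turns its sign. Cox5a had signals of 9.28, 9.48 and 9.51 in water and 9.33, 9.29 and 9.28 in TKI258 tumors, with the TKI258 tumors close to each other and to water replicate 1, and differed by -0.12 ± 0.093. Cox6c stood at 11.67, 12.03 and 11.72 in water and 11.77, 11.67 and 11.63 in TKI258 tumors, where water replicate 2 was above every other tumor, and differed by -0.12 ± 0.12. Cox4i1, Cox5b and Cox7a2 differed by 0.0099, -0.010 and 0.0051. Second probe sets of Cox5b and Cox6c differed by -0.097 ± 0.10 and -0.066 ± 0.089, with overlapping groups.

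Cox10 and Cox15 carry out successive steps in making heme A, the cofactor of complex IV. Cox15 signal was 8.32, 7.93 and 8.15 in water and 8.08, 8.08 and 7.91 in TKI258 tumors, a spread of 0.20 (SD) among the water tumors, and it differed by -0.11 ± 0.12. Cox10 signal was 7.83, 7.69 and 7.89 in water and 7.78, 7.74 and 7.83 in TKI258 tumors, and it differed by -0.021 ± 0.089. Complex V, the ATP synthase, was represented by Atp5o, a subunit of its peripheral stalk. Atp5o had signals of 9.23, 9.47 and 9.24 in water and 9.14, 9.25 and 9.10 in TKI258 tumors, with water replicate 2 the highest tumor, and differed by -0.15 ± 0.10.

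The pyruvate dehydrogenase complex joins glycolysis to the TCA cycle, and 3 of its 4 genes were lower in TKI258 tumors (median difference -0.13). Pdhb, the beta subunit of the first enzyme, had signals of 10.47, 10.67 and 10.50 in water and 10.39, 10.40 and 10.28 in TKI258 tumors. The treated tumors lay below the untreated ones, and the difference was -0.19 ± 0.094 (limma adjusted p = 0.658). Pdha1, the alpha subunit of the same enzyme, differed by 0.041 ± 0.084. Dld, the dihydrolipoamide dehydrogenase that this complex shares with the oxoglutarate dehydrogenase complex, stood at 10.46, 10.46 and 10.64 in water and 10.43, 10.45 and 10.26 in TKI258 tumors. The gap between its groups was far narrower than the range within each, and it differed by -0.14 ± 0.099. Dlat, the acetyltransferase core, differed by -0.12 ± 0.10 with overlapping groups.

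In the TCA cycle 10 of 12 genes were lower, with a median difference of -0.13. Cs, which makes citrate from acetyl-CoA and oxaloacetate, had signals of 10.38, 10.40 and 10.41 in water and 10.12, 10.26 and 10.17 in TKI258 tumors. The water tumors were close to each other and every TKI258 tumor lay below them. The difference of -0.22 ± 0.080 (95% interval -0.41 to -0.023) had the smallest p of the 54 members (limma adjusted p = 0.604). Idh3a, the catalytic subunit of the NAD-dependent isocitrate dehydrogenase, had signals of 10.16, 10.15 and 10.27 in water and 10.03, 10.09 and 9.87 in TKI258 tumors. Treated tumors were again below untreated ones, and it differed by -0.20 ± 0.094 (adjusted p = 0.649). The other subunits of that enzyme differed by -0.14 ± 0.097 (Idh3b) and 0.016 ± 0.093 (Idh3g), with overlapping groups. Idh2, the NADP-dependent enzyme, differed by -0.21 ± 0.14, and its highest value was in water replicate 2 (10.16, against 9.54 to 9.75 in the other 5 tumors). The oxoglutarate dehydrogenase genes Ogdh and Dlst differed by -0.12 ± 0.085 and -0.065 ± 0.096. Among the succinate-CoA ligase genes, the ATP-forming subunit gene Sucla2 differed by -0.18 ± 0.11, the GTP-forming subunit gene Suclg2 by -0.13 ± 0.11 and their shared partner Suclg1 by -0.013 ± 0.10. A second Suclg2 probe set with a lower signal differed by -0.23 ± 0.091, with no overlap between groups. The last steps of the cycle, fumarase (Fh1) and malate dehydrogenase (Mdh2), differed by 0.033 ± 0.079 and -0.031 ± 0.093.

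Of the 4 regulators of mitochondrial genes 3 were higher, with a median difference of 0.031, and all 4 had overlapping groups. This direction was not stable: Nrf1 was lower with median centring, Ppargc1a and Ppargc1b were lower with array weights, and the median was -0.043 with array weights, -0.019 without TKI258 replicate 3, -0.0099 without TKI258 replicate 2 and -0.014 without water replicate 2. Ppargc1a, which encodes PGC-1α, had signals of 3.96, 3.71 and 3.93 in water and 3.79, 3.89 and 4.07 in TKI258 tumors, all below every array median. It differed by 0.056 ± 0.12, and a second Ppargc1a probe set with a still lower signal (mean 3.14) by 0.19 ± 0.091, the TKI258 tumors of this probe set lying above its water tumors. Ppargc1b, which encodes PGC-1β, had signals of 6.82, 6.68 and 7.00 in water and 6.67, 6.97 and 7.07 in TKI258 tumors and differed by 0.070 ± 0.14. Its TKI258 tumors spread more widely than its water tumors, from the lowest to the highest of all 6. Tfam stood at 8.62, 8.77 and 8.74 in water and 8.58, 8.74 and 8.54 in TKI258 tumors, with a difference of -0.088 ± 0.095. Nrf1 signal was 8.33, 8.43 and 8.51 in water and 8.43, 8.55 and 8.30 in TKI258 tumors, and it differed by 0.0053 ± 0.10 (95% interval -0.24 to 0.25).

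Since Nrf1 is itself a member, the start regions of the members were searched for the core of its binding motif, GCGCANGCG, on both strands (the reverse complement is CGCNTGCGC), counting overlapping matches once per window. RefSeq promoter windows (build GRCm38.p6, 250 bases before to 50 after a start) were at hand for 44 of the 54 genes, in 51 windows. The core was found for 10 of 44 members (22.7%), in 23.5% of their windows, against 6.25% of all 32851 windows. The members' windows were also richer in G and C (median 60.3% against 52.7%), and the core consists mostly of these bases. The genes with a match were Atp5o, Dld, Ndufa5, Ndufa8, Ndufb10, Ogdh, Sdha, Sdhd, Sucla2 and Uqcrc1. Matches before the start are shown for 6 of them, 5′ to 3′ on the gene's strand with the core in capitals on either strand:

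Ndufa5: tgtgtgagctGCGCAGGCGcaaatctacc
Ndufa8: tagagcagtgCGCTTGCGCgtcgctggag
Ogdh: taggtgttgtGCGCATGCGtaactcaact
Sdha: cgtttacaggGCGCAGGCGcaccaccact
Sdhd: tcgctggggtGCGCACGCGcggtggcagc
Sucla2: tgcgtctctgCGCCTGCGCggtgcccagg

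These stretches lie at chr6:24527698-24527726 (- strand), chr2:36049349-36049377 (- strand), chr11:6292533-6292561 (+ strand), chr13:74350320-74350348 (- strand), chr9:50603910-50603938 (- strand) and chr14:73552760-73552788 (+ strand). Idh3a was among the genes without a window, and of the other 6 members with separate groups Ndufa8, Sdhd and Dld held the core. The match of Dld lay after the start. Ndufa5 and Uqcrc1, which also held the core, differed by 0.033 ± 0.090 and -0.039 ± 0.11. Those 6 members were picked by their signals, and a link between the core and the differences was not tested. Letters of 3 further motifs were less frequent. The GABP core CCGGAAGT was found for 5 of 44 members (Cox10, Cox15, Dlst, Ndufs3 and Tfam) and in 9.80% of their windows, against 3.89% of all windows. The YY1 core AAGATGGCG was found for 5 members (Cox10, Idh3g, Ndufa9, Ndufs4 and Ndufs7) and in 9.80% of their windows, against 1.40% of all windows, and the estrogen-related receptor motif TCAAGGTCA for Sdhd alone, against 0.423% of all windows. A match is a string of letters and not a shown binding site.

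Averaged over the 54 members, the signal was 9.50, 9.57 and 9.59 in water and 9.50, 9.52 and 9.41 in TKI258 tumors. The group means were 9.55 ± 0.049 and 9.48 ± 0.056 (SD, n = 3), a difference of -0.075 that was of the order of the spread between tumors, and the groups overlapped. Among the 9 member groups, only the mean of the 12 TCA cycle genes separated the tumors, at 10.12, 10.21 and 10.22 in water and 10.10, 10.11 and 10.02 in TKI258 tumors, and the gap between the highest treated and the lowest untreated tumor was narrower than the range within either group. Complex I genes averaged 9.26, 9.35 and 9.34 in water and 9.28, 9.29 and 9.17 in TKI258 tumors. For complex II genes the means were 9.83, 9.85 and 9.89 in water and 9.78, 9.83 and 9.66 in TKI258 tumors. Both had overlapping groups, with the lowest value in TKI258 replicate 3.

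**Figure D4:**
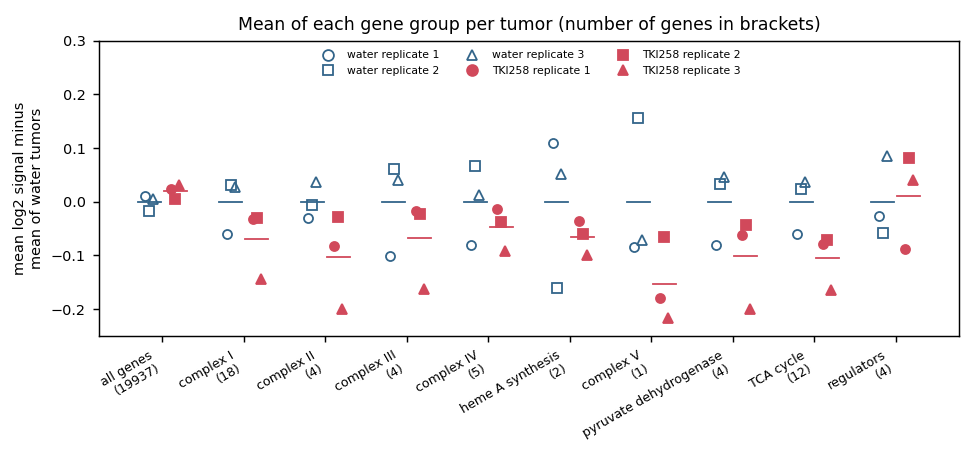
Mean log2 signal of each gene group in each tumor, minus the mean of the 3 water tumors, with the number of genes in brackets; horizontal lines are group means, open blue symbols water and filled red symbols TKI258 tumors. TKI258 replicate 3 is the lowest tumor for complexes I to V, pyruvate dehydrogenase and the TCA cycle, but not for heme A synthesis or the regulators.

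TKI258 replicate 3, the tumor with high B cell markers, most often had the lowest value. It was the lowest of the 6 for 29 of 54 members (53.7%), and for 53.4% of the genes in the members' signal range, against 28.2% of all genes. Without it 37 of 54 members were still lower, the members' median difference was -0.040, and that of the genes in the same signal range -0.0069. Without any other single tumor the members' median stayed between -0.10 and -0.057, the value nearest to 0 being that without water replicate 3. By group, the medians without TKI258 replicate 3 were -0.029 for complex I, -0.094 for complex II, -0.023 for complex III, -0.0063 for complex IV, -0.059 for pyruvate dehydrogenase and -0.10 for the TCA cycle. Without water replicate 3 they were -0.037 for complex I, -0.033 for complex III and -0.079 for the TCA cycle. Without water replicate 1 complex III stood at -0.12 and complex IV at -0.045, and the heme A pair ran from -0.15 without water replicate 2 to -0.011 without water replicate 1. Atp5o differed by -0.076 without water replicate 2. Without both tumors high in B cell markers, an alternative chosen after the data were seen, the members' median was -0.072. That of the genes in the same signal range was then -0.015. At the other end, water replicate 3 was the highest tumor for 24 members (44.4%, against 15.3% of all genes and 24.3% of those in the same signal range). Water replicate 2 was the highest for 20 (37%, against 18.2% and 28.5%), while water replicate 1 was the lowest for 13 (24.1%, against 9.35% and 6.59%). Adipocyte, B cell and keratinocyte markers differed between the same tumors, as given above. T and NK cell markers averaged 7.87 in TKI258 replicate 3, against 5.53 to 6.64 elsewhere. The part of these cells in the members' signals was not tested.

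Other genes of the pathway, taken from lists of further subunits, assembly factors, linked enzymes and regulators, were also mostly lower by small amounts. Of 108 such genes with a probe set of their own, 65 were lower and 43 higher (median difference -0.037). The share of lower genes was 60.2%, against 43.4% of all genes and 67.1% of the genes in the members' signal range. That range was set by the 54 members and is not matched to these genes. Their list means in water tumors ran from 7.85 (pyruvate entry and its control) to 12.86 (mitochondrially encoded subunits). After adjustment 0 passed limma's test, and 6 (5.56%, against 7.14% of all genes) had an unadjusted limma p under 0.05. Groups were separate for 12 lower genes (11.1%, against 6.49% of all genes and 11.9% of those in the members' signal range). They were also separate for 8 higher genes (7.41%, against 8.66% and 3.24%). The 17 genes listed as further complex I subunits were evenly divided, 9 lower and 8 higher (median -0.0037), and so were 15 further genes of complex V, 8 lower and 7 higher (median -0.0073), both medians being above 0 with quantile normalization. The first was also above 0 without water replicate 2, water replicate 3 or TKI258 replicate 3, and the second without water replicate 1 or TKI258 replicate 3. Among these genes Ndufa4 (0.17 ± 0.092), which carries a complex I name but encodes a protein known as a subunit of complex IV, Ndufs5 (0.19 ± 0.10), Ndufa7 (0.16 ± 0.089) and the ATP synthase gene Atp5j2 (0.18 ± 0.084) had higher means, opposite to most of the 54 members, as did Atp5k (0.097 ± 0.083), while Atp5a1, the alpha subunit gene, differed by -0.094 ± 0.091. Of 14 further genes of complexes III and IV and cytochrome c, 9 were lower, with a median of -0.012 that was above 0 with quantile normalization and without water replicate 3. Cycs, the electron carrier cytochrome c, had signals of 10.52, 10.52 and 10.67 in water and 10.28, 10.30 and 10.31 in TKI258 tumors, with separate groups and a difference of -0.27 ± 0.084 (limma adjusted p = 0.574). Cycs had 3 probe sets naming it alone, and these signals are of the one with the highest mean. Over the alternative runs, which include the mean of all its probe sets, its difference lay between -0.31 and -0.14. Cox6a1 and Cox7a2l differed by -0.21 ± 0.11 and -0.11 ± 0.084. Cox7a2l had 2 probe sets, and its difference lay between -0.15 and -0.047 over those runs. Of 13 subunits encoded by mitochondrial DNA, 2 had a probe set of their own, COX2 (-0.10 ± 0.086) and ND3 (-0.0067 ± 0.082), both with overlapping groups. The other 11 were not analysed here.

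Assembly factors, which build the complexes without being part of them, had 21 of 31 genes lower (median difference -0.059, but -0.0034 without TKI258 replicate 3, -0.12 without TKI258 replicate 1, -0.095 without TKI258 replicate 2 and -0.092 without water replicate 1). Foxred1, a complex I assembly factor, had signals of 9.09, 9.28 and 9.14 in water and 8.97, 8.73 and 8.69 in TKI258 tumors. Its groups were separate, with TKI258 replicates 2 and 3 well below the rest, and it differed by -0.38 ± 0.11 (adjusted p = 0.574). Ndufaf2 and Ndufaf5, which act on the same complex, differed by -0.26 ± 0.085 and -0.20 ± 0.096, also with separate groups. Of 13 other regulators 7 were lower (median -0.074, which turned to 0.012 without TKI258 replicate 3), and Tfb2m, a mitochondrial transcription factor, differed by -0.28 ± 0.12, Gabpa by -0.14 ± 0.098 and Gabpb1 by -0.12 ± 0.091.

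The largest differences among the members and these lists were in Pdk4 and Pcx, enzymes that direct pyruvate and that fat tissue is known to express. Of 8 genes of pyruvate entry and its control 5 were lower (median -0.13, but -0.058 without TKI258 replicate 3 and -0.050 without water replicate 3), and of 8 enzymes linked to the TCA cycle 4 (median -0.041, which turned to 0.037 without water replicate 2 and was -0.099 without TKI258 replicate 1). Pdk4, a kinase that switches pyruvate dehydrogenase off, had signals of 5.87, 6.05 and 5.61 in water and 5.98, 6.40 and 7.35 in TKI258 tumors. TKI258 replicate 3 was the highest tumor and TKI258 replicate 1 lay within the water range, and the difference was 0.73 ± 0.34 (adjusted p = 0.647). Pcx, pyruvate carboxylase, which makes oxaloacetate, had signals of 6.64, 6.60 and 6.35 in water and 6.64, 7.15 and 7.63 in TKI258 tumors, with TKI258 replicate 1 at the level of water replicate 1. It differed by 0.61 ± 0.24 (adjusted p = 0.614). Without TKI258 replicate 3 the differences were 0.34 for Pdk4 and 0.37 for Pcx. In both genes the TKI258 tumors stood in the same order as for the 10 adipocyte markers, whose mean was 7.39, 8.07 and 8.89 in these tumors, all above the water tumors (6.32 to 7.34). The water tumors did not share that order, since Pdk4 was highest in water replicate 2, where the adipocyte mean was lowest. The defining adipocyte gene Adipoq (adiponectin) had signals of 7.51, 5.42 and 6.58 in water and 7.51, 8.65 and 9.71 in TKI258 tumors. The part of fat cells in the Pdk4 and Pcx values was not tested. Pdk2, another kinase of the complex, had signals of 6.93, 7.07 and 6.65 in water and 7.19, 7.26 and 7.13 in TKI258 tumors, with separate groups and a difference of 0.31 ± 0.12. Pdhx, a structural component of the complex, differed by -0.27 ± 0.12, and Me2, a mitochondrial malic enzyme, by -0.30 ± 0.10, both with treated tumors below untreated ones, while Glud1, glutamate dehydrogenase, differed by -0.18 ± 0.11.

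**Figure D5:**
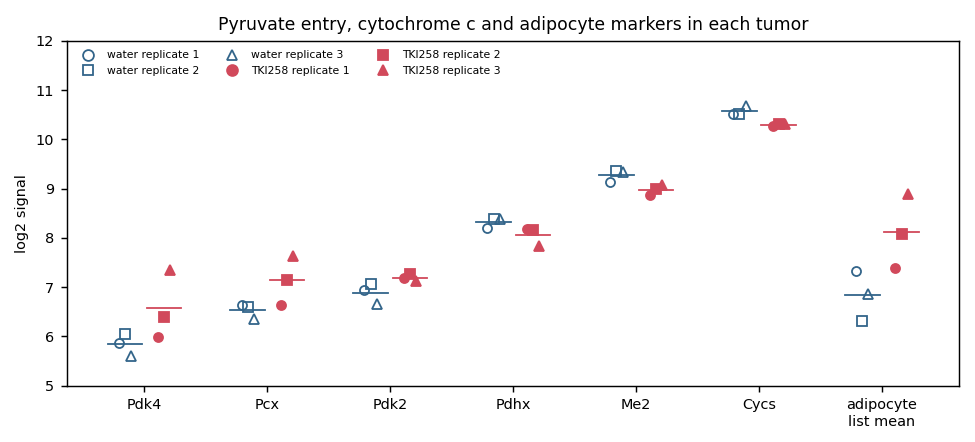
Log2 signal in each tumor of genes of pyruvate entry (Pdk4, Pcx, Pdk2, Pdhx), malic enzyme (Me2) and cytochrome c (Cycs), beside the mean of 10 adipocyte markers; lines are group means, open blue symbols water and filled red symbols TKI258 tumors. Pdk4 and Pcx are highest in TKI258 replicate 3, where the adipocyte mean is 8.89.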

How the data were processed

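RNA of 6 tumors, 3 per group, was hybridized to 1 array each. The deposited table holds log2 signals of 34760 probe sets, which were taken as RMA values made by the authors from their range and because the submitters' processing notes name RMA, affy and limma, without roles or versions; the genome build is not given in the sources used here. RMA normalizes across arrays, so a shift shared by all genes would be removed. The number of tumors limits the precision.

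Gene names came from the platform's annotation (21640 with 1 gene, 1321 with several, 11799 with none listed); each of 19937 genes was represented by the single-gene probe set with the highest mean. Symbols of 21553 probe sets matched RefSeq (GRCm38.p6) by Entrez number. TKI258 was compared with water in limma 3.58.1 (R 4.3.3; lmFit and eBayes, two-sided, group as the only term, no filter), with Benjamini-Hochberg adjustment over all probe sets, called at an adjusted p under 0.05. The fit was tested on simulated data with added differences far larger than those of the members. That test does not tell whether differences as small as theirs would be called. Lists were described by counts and medians without a test, since genes are not replicates.

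Members, lists and tests were chosen with earlier results of these data known. Given with values per tumor were members whose groups did not overlap, the 2 of each group with the smallest p, the largest difference in each direction and the 4 regulators. Of each other list the 3 genes with the smallest p are named, some with values per tumor. Alternatives were a low-signal filter, quantile normalization, median centring, a replicate block, a trend and robust prior, array weights, probe set means, single-gene probe sets only, a threshold of 0.1, each tumor left out and, added after the data were seen, both tumors with high B cell markers left out.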

Additional observations from a re-analysis of the deposited data

How the results depend on the processing

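No member passed under any alternative run (lowest adjusted p 0.472, with array weights), and the members' median difference stayed below 0 in all of them. The replicate block, the trend and robust prior, single-gene probe sets only and the threshold of 0.1 leave each member's difference as it was. These runs could therefore not move the median or turn a sign. The filter on low signal could turn no sign either, since it only dropped Ppargc1a and kept the differences of the other 53 members. Probe set means could alter only the 5 members with several probe sets. Over all probe sets 0 passed, with 2803 at an unadjusted limma p under 0.05; without 1 tumor the count was 0 to 3, the 3 being without water replicate 1, and without both tumors high in B cell markers it was 1. The replicate block gave 0 calls over all probe sets, as did the fit without it. Correlations of deviations from the group means were -0.32, 0.18 and -0.0084 for same-numbered tumors and -0.29 to 0.34 for the others. With 3 tumors per group, these values cannot settle whether the numbers pair tumors. Scaling moved the share of lower members from 70.4% to 61.1% with quantile normalization (median -0.061) and 85.2% with median centring (median -0.12). Without 1 tumor the members' median ran from -0.10 to -0.040 and that of the 13 other regulators from -0.072 to 0.012, the latter being -0.011 without both tumors high in B cell markers. The causes of these shifts were not tested. The filter on low signal removed Ppargc1a, Pdk4 and Ndufaf5, which have no value under it.

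The sign held for 30 of 54 members under every alternative, Cs, Idh3a, Pdhb, Ndufs3, Ndufa8 and Sdhd among them, and turned under at least 1 for 24, none of which differed by more than 0.11 in either direction. With quantile normalization it turned for Ndufb5 (0.014), Uqcrc1 (0.0052), Cox5b (0.026), Cox10 (0.0033), Suclg1 (0.027) and, outside the members, ND3 (0.018). ND3 is also listed below for the fits without 1 tumor and is not among the 24 members. With median centring it turned for Ndufb3 (-0.015), Ndufs4 (-0.0016), Ndufs8 (-0.0026), Uqcrc2 (-0.015), Cox4i1 (-0.0076), Cox7a2 (-0.012), Idh3g (-0.0012), Nrf1 (-0.012). With array weights it turned for Ndufa5 (-0.00031), Ndufb3 (-0.023), Ndufb5 (0.050), Ndufb8 (0.0037), Suclg1 (0.032), Ppargc1a (-0.039), Ppargc1b (-0.047). After leaving out both tumors high in B cell markers, an alternative chosen after seeing the data, it turned for Ndufa1 (-0.010), Ndufb8 (0.021), Ndufs4 (-0.077), Uqcrc2 (-0.068), Cox7a2 (-0.013), Cox15 (0.042), Idh3g (-0.045), Mdh2 (0.0090), Ppargc1b (-0.024). Over the fits without 1 tumor, values ran from lowest to highest as given for Ndufa1 (-0.021 to 0.075), Ndufs4 (-0.060 to 0.098), Uqcrc2 (-0.050 to 0.072), Cox7a2 (-0.040 to 0.063), Pdha1 (-0.0036 to 0.078), Idh3g (-0.037 to 0.075), Fh1 (-0.0013 to 0.055), Nrf1 (-0.057 to 0.071), Ndufa2 (-0.19 to 0.00040), Ndufa5 (-0.0053 to 0.085), Ndufb3 (-0.061 to 0.055), Ndufb5 (-0.092 to 0.054), Suclg1 (-0.088 to 0.037), Ppargc1a (-0.023 to 0.12), Ppargc1b (-0.016 to 0.19), ND3 (-0.045 to 0.016), Ndufb8 (-0.14 to 0.070), Uqcrc1 (-0.098 to 0.028), Cox4i1 (-0.012 to 0.047), Cox5b (-0.045 to 0.048), Cox10 (-0.078 to 0.020), Mdh2 (-0.085 to 0.020), Ndufs8 (-0.035 to 0.041), Sdhc (-0.0064 to 0.11), each of which turned sign in at least 1 fit.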
